A study of Homo sapiens with 6 samples.

Results

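Cells that made wild-type ACK1 were compared with cells that made the same kinase carrying the change called IDRmut, and the 4 libraries of these 2 groups, out of 6 in the series, are described here. They were chosen by their labels and the column names of the count table, not by any measured value. All groups were H2170, a line established from a human squamous cell carcinoma of the lung and grown in DMEM with fetal bovine serum, and each group had 2 libraries. The WT group expressed ACK1 (WT) fused to GFP, the IDRmut group expressed ACK1 (IDRmut) fused to GFP, and the Control group expressed GFP alone. The labels call both ACK1 groups overexpression, so the endogenous gene was present under each transgene. The sources used here do not give the promoter of the transgene, or say whether a group was a clone or a pool and whether replicates were separate cultures. The p-values therefore measure no more than the spread among these libraries, and that spread may be technical.

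ACK1, encoded by TNK2, is a non-receptor tyrosine kinase that binds the small GTPase CDC42, sits on clathrin-coated and endosomal membranes and acts downstream of growth factor receptors. IDR commonly stands for intrinsically disordered region, a flexible protein segment of the kind through which proteins can gather into condensates; the labels do not spell it out or list the altered residues. The series title names ACK1 condensates and STAT5, a transcription factor that cytokine receptors activate through tyrosine phosphorylation. The comparison of WT with IDRmut asks which transcripts differ between cells with the 2 forms of the kinase.

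TNK2 was high in both groups but not equal. The gene lies on the minus strand of GRCh38 at chromosome 3, 195863364 to 195911945. Its level was 3514 and 3613 CPM in WT, 1762 and 1455 CPM in IDRmut and 41.1 and 43.1 CPM in Control, where CPM is the usual unit of counts scaled to a common library total. Both WT libraries lay above both IDRmut libraries, and all 4 lay far above Control. WT exceeded IDRmut 2.22-fold, a log2 fold change of 1.15 ± 0.06 (SE) with a Benjamini-Hochberg adjusted p of 2.8e-10 from the quasi-likelihood test of edgeR. Exons of other genes overlap 2.45% of its exon bases, and reads of the transgene and of the endogenous gene were counted together. Every difference below goes with this difference in ACK1 transcript, and the form of the kinase and its amount cannot be told apart in these data. Control levels are printed beside many of the genes.

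Totals were between 19128111 and 33540998 counts per library, the deepest being WT replicate 2. The Spearman coefficient between replicates, across genes, was 0.997 in WT and 0.996 in IDRmut, but the IDRmut pair differed more than the WT pair, with a chi-square per gene of 3.73 against 1.55. Mitochondrial transcripts took 4.32% and 4.15% of counts in WT and 5.06% and 5.47% in IDRmut. Of the markers of the squamous lineage, SOX2, KRT14, KRT17, TRIM29 and DSG3 were expressed in all libraries and TP63, the master regulator of basal squamous cells, stood at 27.01 CPM in WT and 32.5 CPM in IDRmut. The epithelial markers CDH1 and EPCAM went against the label of a squamous carcinoma line and were nearly absent, with 0, 1, 1, 2, 0 and 3 counts for CDH1 over the Control, WT and IDRmut libraries and 0, 1, 4, 4, 2 and 2 counts for EPCAM. VIM, the mesenchymal intermediate filament, stood at 1323 CPM in WT and 1201 CPM in IDRmut. ERBB2, the receptor for whose amplification H2170 is known, stood at 100.1 and 101 CPM in WT, 116 and 105 CPM in IDRmut and 128 and 129 CPM in Control. The cells are therefore called H2170 here only as their labels do. None of the 12 leukocyte markers passed the filter on low counts.

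Of 16591 genes tested, 4396 were called at an adjusted p under 0.05, which is 26.5% of them. In WT 2350 genes were higher, 14.2% of those tested, and 2046 were lower, 12.3%. At 1.5-fold or more 579 were higher (3.49%) and 482 lower (2.91%). Most called differences were therefore small, and the median log2 fold change over all genes tested was 0.0007. Well expressed genes were called more often: with genes split into 5 equal classes by mean level, 19.7% of the highest class were higher and 23.4% lower, against 5.51% and 3.86% of the lowest. Without WT replicate 2 the count of called genes was 2590. DESeq2 called 2518 genes, 1335 higher and 1183 lower in WT, and 594 at 1.5-fold or more. Counts of list members with DESeq2 or with 1 library left out move with such totals. They are therefore not to be set against 14.2% and 12.3%.

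**Figure D1:**
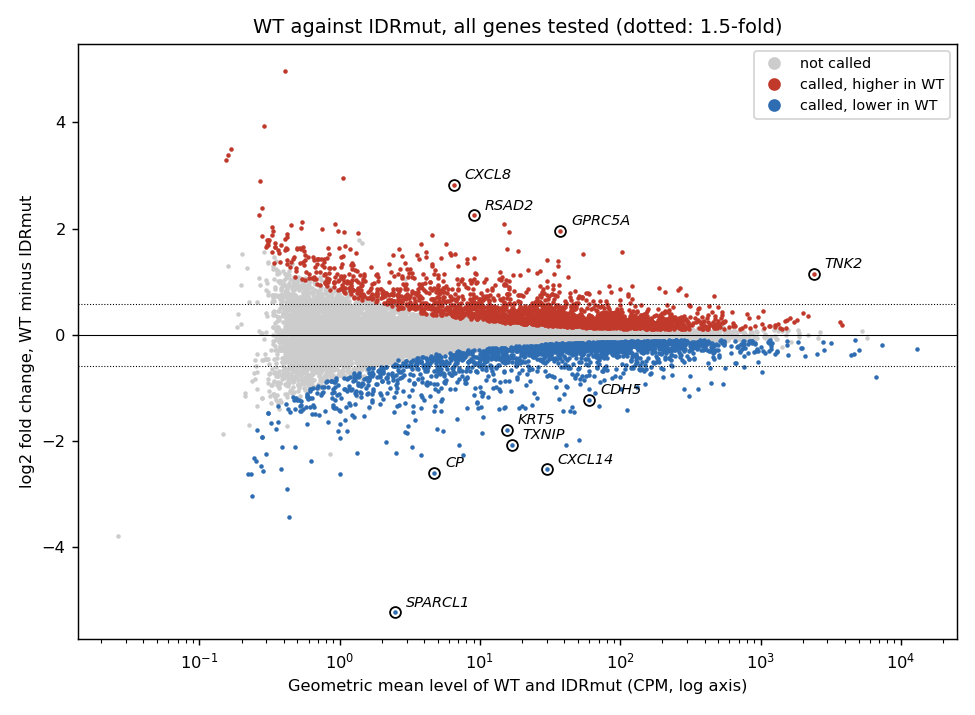
Each point is a gene tested; the horizontal axis is the geometric mean of its WT and IDRmut levels in CPM on a log axis and the vertical axis its log2 fold change, WT minus IDRmut. Called genes are red (higher in WT) or blue (lower in WT), dotted lines mark 1.5-fold, and SPARCL1 at -5.22 and CXCL8 at 2.83 are the outermost of the genes named on the plot.

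Most of the antiviral genes that cells switch on in response to interferon were higher in WT. Interferons bind cell surface receptors, JAK kinases then phosphorylate STAT proteins, and with IRF9 these bind interferon-stimulated response elements in the promoters of many genes. Of 22 tested antiviral effectors 17 were higher in WT and 0 lower, with a median log2 fold change of 0.32, against 14.2% and 12.3% of all genes. DESeq2 called 12 of the effectors higher and 0 lower. The order of levels was Control, IDRmut, WT for those named next. RSAD2, which encodes viperin, a radical enzyme that makes a chain-terminating nucleotide, had 20.1 and 19.3 CPM in WT, 4.12 and 4.14 CPM in IDRmut and 0.102 and 0.0538 CPM in Control. Its 2 groups did not overlap, and WT was 4.75-fold above IDRmut (2.25 ± 0.10; adjusted p 9.4e-11 by edgeR). IFIT3, a scaffold for the RNA-binding IFIT1, had 30.9 and 33.3 CPM in WT, 10.4 and 11.1 CPM in IDRmut and 1.27 and 1.61 CPM in Control, a difference of 1.59 ± 0.08 with an edgeR adjusted p of 3.7e-10.

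Within the effectors the difference was uneven. The RNA-binding IFIT2 differed by 1.94 ± 0.09 and IFIT1 by 1.08 ± 0.06, while CMPK2, the nucleotide kinase that neighbours RSAD2, differed by 1.94 ± 0.32 from levels near 1 CPM. The dynamin-like GTPase MX1 differed by 0.86 ± 0.06 and its nuclear relative MX2 by 0.97 ± 0.15. The restriction factor TRIM5, the nuclear body protein SP100 and the helicase coactivator HELZ2 differed by 0.52, 0.58 and 0.80. The kinase that halts translation on double-stranded RNA, EIF2AK2, and the editing enzyme ADAR had 0.28 and 0.12, and both were chosen after their values were seen. BST2, the tetherin that holds budding virus, stood at 7.298 and 7.81 CPM in WT and 8.69 and 8.32 CPM in IDRmut and was not called (-0.16). The IFIT genes are near-identical in part and lie in a cluster, so reads could be split among them. Calls lost without 1 library were ADAR without WT replicates 1 or 2 (adjusted p up to 0.13) by edgeR. Not called by DESeq2 were TRIM5 (adjusted p 0.09).

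The enzymes that act on RNA and the ubiquitin-like modifier ISG15 followed. Of 5 genes of the oligoadenylate synthetase pathway 4 were higher in WT: OAS1, OAS2, OAS3 and OASL by 0.62, 0.75, 0.71 and 0.51. Of 7 ISG15 conjugation genes 5 were higher and 0 lower. ISG15 itself had 36.7 and 36.4 CPM in WT, 20.3 and 18.5 CPM in IDRmut and 4.16 and 4.62 CPM in Control and differed by 0.92 ± 0.07. USP18, the protease that removes ISG15, differed by 0.53 and the ligase HERC6 by 0.57. Of 6 interferon-linked PARP genes 5 were higher, PARP9 by 0.42 and PARP14 by 0.38. Among 18 interferon-inducible membrane and nuclear genes 8 were higher, led by IFI27 (1.04) and IFI44L (1.02), and 3 were lower. Those 3 were IFITM1 (-0.72; 32.5% of its exon bases overlap another gene), IFITM2 (-0.36) and LY6E (-0.44), small membrane proteins that block or aid viral entry. Leaving out 1 library moved some of these counts by more than 1.5 times, to 1 lower for ISG15 conjugation genes without IDRmut replicate 2. With 1 library fewer, edgeR no longer called OASL without WT replicates 1 or 2 or IDRmut replicate 1 (adjusted p up to 0.18). In DESeq2 the threshold was missed by OASL (adjusted p 0.25).

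Short stretches upstream of genes on which this comparison turns are shown with the letters of an interferon-stimulated response element in capitals (GAAANNGAAA on either strand), followed by CA9, whose capitals are a hypoxia-type core (ACGTG on either strand). The sequences are RefSeq promoters on GRCh38.p14, 5′ to 3′ on the strand of the gene, and end before its annotated start.
IFIT3 (chr10:89327855-89327914, plus strand): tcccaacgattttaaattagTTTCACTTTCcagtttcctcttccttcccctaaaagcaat
ISG15 (chr1:1013370-1013429, plus strand): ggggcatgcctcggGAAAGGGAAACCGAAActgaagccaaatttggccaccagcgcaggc
CXCL10 (chr4:76023679-76023738, minus strand): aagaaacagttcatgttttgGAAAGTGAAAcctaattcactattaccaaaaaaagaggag
B2M (chr15:44711359-44711418, plus strand): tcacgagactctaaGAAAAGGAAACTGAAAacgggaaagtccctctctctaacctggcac
CA9 (chr9:35673868-35673927, plus strand): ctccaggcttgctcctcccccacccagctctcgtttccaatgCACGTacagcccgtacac

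IFIT3, ISG15 and CXCL10 were higher in WT, whereas B2M, with the same kind of letters in its promoter, was lower. Over 300 bases around the start, GAAANNGAAA was found in 21 of 385 promoters of genes at least 1.5-fold higher in WT (5.45%), in 10 of 300 of those lower (3.33%) and in 316 of all 11390 matched (2.77%). The core ACGTG was found in 21% of the higher, 20.7% of the lower and 26.4% of all promoters. The letters TTTGAA, of the cell cycle homology element, were in 10.6%, 13.3% and 9.98%. TTCNNNGAA, the palindrome bound by STAT5 and other STAT factors and added after the data were seen, was in 5.71%, 6.33% and 6.42%. A match is a description of the letters and not of binding, and the motifs can overlap one another.

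Of 10 JAK and STAT genes, which act upstream of this response, 1 was higher in WT and 2 lower, a share near the 26.5% of all genes called. Lower were STAT3, which carries interleukin-6 signals, with 294 and 285 CPM in WT and 386 and 396 CPM in IDRmut (-0.43 ± 0.04), and JAK3, a kinase of lymphoid cytokine receptors, at under 1 CPM in both (-1.45). STAT5A stood at 7.2 and 6.61 CPM in WT, 6.09 and 5.78 CPM in IDRmut and 5.68 and 4.62 CPM in Control, and its groups were not called apart (0.21 ± 0.12; edgeR adjusted p 0.24). STAT5B, at 48.9 and 50.7 CPM in WT and 51.1 and 53.8 CPM in IDRmut, had -0.07 ± 0.05 with an edgeR adjusted p of 0.36. Among 9 interferon regulatory factors and their partners none was higher and 1 lower, the co-repressor IRF2BPL (-0.36). IRF1, IRF7 and IRF9 were not called (-0.13, -0.18 and 0.16; 48.4% of the IRF9 exon bases overlap another gene). IFNB1, interferon beta, had 0, 0, 5, 5, 1 and 2 counts over the Control, WT and IDRmut libraries, and none of the 9 interferon genes listed passed the filter. Dependent on 1 library were the edgeR calls of JAK3 without Control replicates 1 or 2 or WT replicate 1 or IDRmut replicate 2 (adjusted p up to 0.25).

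Receptors and sensors of the pathway went both ways. Of 21 cytokine receptor genes 6 were higher and 4 lower in WT, and with DESeq2 3 higher and 3 lower. IL4R, the interleukin-4 receptor, had 4.31 and 4.91 CPM in WT, 1.82 and 1.501 CPM in IDRmut and 0.102 and 0.161 CPM in Control (1.49 ± 0.18), and the interferon lambda receptor IFNLR1 and the interleukin-15 receptor IL15RA differed by 0.78 and 0.93. IL7R, the interleukin-7 receptor, which signals through STAT5, differed by 0.52 ± 0.06. IL20RB was lower, 3.28 and 2.81 CPM against 7.56 and 7.55 CPM (-1.33 ± 0.14), and IFNAR1 and IFNGR1, the interferon receptors, were not called (-0.07 and -0.10). Of 9 nucleic acid sensors 3 were higher, among them the RNA sensor IFIH1 (0.44) and the kinase IKBKE (0.92), and STING1, the adaptor for cytosolic DNA, was lower (-0.24). With 1 library left out, some counts moved by more than 1.5 times, to 3 higher for cytokine receptors without WT replicate 2. The remaining values were 1 lower for JAK and STAT genes, 1 higher for IRF genes and 0 lower for sensors without WT replicate 1 and 2 higher for JAK and STAT genes, 1 lower for JAK and STAT genes and 3 lower for IRF genes without IDRmut replicate 2. Also counted were 2 higher for JAK and STAT genes and 2 higher for IRF genes without IDRmut replicate 1 and 1 lower for JAK and STAT genes without Control replicate 2. Beyond these there were 1 lower for JAK and STAT genes without Control replicate 1. Leaving out 1 library ended the edgeR calls of IFNLR1 without Control replicates 1 or 2 or WT replicate 2 or IDRmut replicate 2 (adjusted p up to 0.36), IL15RA without WT replicates 1 or 2 or IDRmut replicate 1 (adjusted p up to 0.11) and STING1 without WT replicate 1 (adjusted p 0.055). By DESeq2 there was no call for IFNLR1 (adjusted p 0.29).

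Of 19 genes of HLA class I and peptide loading 4 were higher in WT and 6 lower, and the heavy chains named next were lower. HLA-B, a heavy chain that presents peptides to T cells, had 160 and 159.7 CPM in WT, 222 and 214 CPM in IDRmut and 52.04 and 53.2 CPM in Control. It was thus lower in WT than in IDRmut (-0.45 ± 0.04; edgeR adjusted p 1.6e-07) while both lay above Control. HLA-C (-0.26), HLA-F (-0.41) and the shared light chain B2M (-0.15; 861 and 887 CPM in WT, 931 and 1007 CPM in IDRmut) were lower too. The peptide transporter TAP1 (0.32; 76.7 and 75.4 CPM in WT, 64.8 and 57.2 CPM in IDRmut), the trimming peptidase ERAP2 (0.31) and NLRC5, the transactivator of class I genes (0.32), were higher. The HLA genes are near-identical and variable in sequence, so their reads may be split or lost in alignment. Counts that moved by more than 1.5 times without 1 library came to 1 higher for HLA class I genes without WT replicate 2. Not called by edgeR with 1 library left out were HLA-F without WT replicate 2 (adjusted p 0.13), B2M without WT replicate 1 (adjusted p 0.1) and ERAP2 without WT replicate 2 (adjusted p 0.058). With 1 library fewer, edgeR no longer called NLRC5 without WT replicate 2 (adjusted p 0.053). Not called by DESeq2 were HLA-F (adjusted p 0.05).

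**Figure D2:**
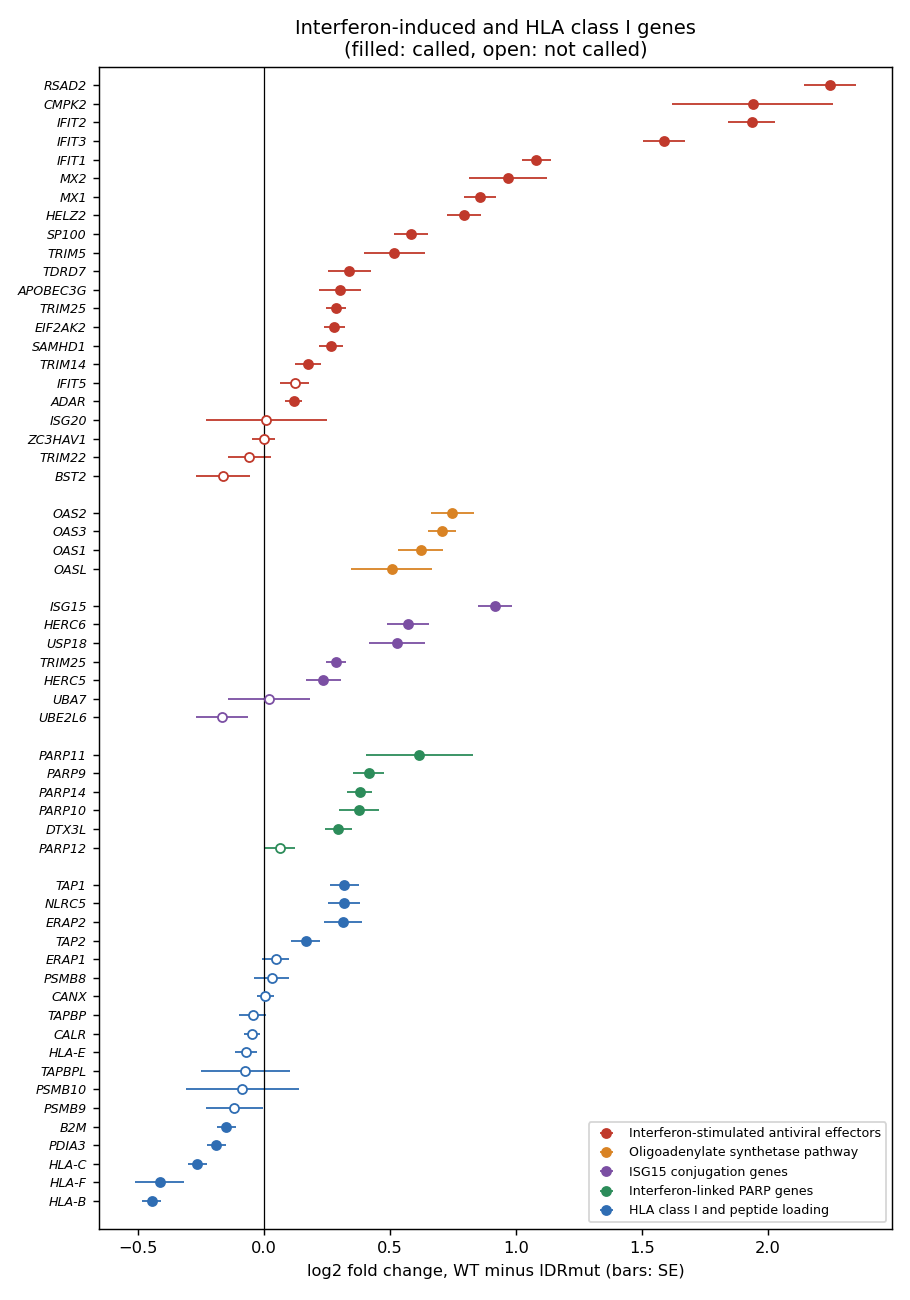
Log2 fold change, WT minus IDRmut, with SE bars for genes of 5 lists, each list in its own colour; filled points were called and open points were not. RSAD2, IFIT2 and IFIT3 lie between 1.59 and 2.25, and HLA-B and HLA-F lie between -0.45 and -0.41.

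Ligands that restrain T cells were more often higher than lower in WT, and chemokines were called in both directions. IDO1, which breaks down tryptophan and dampens T cells, had 43 and 88 counts in WT, 2 and 1 in IDRmut and 1 and 1 in Control, a ratio of 33.9 (95% counting interval 11.3 to 166) for WT over IDRmut. CD274, the ligand PD-L1, had 15.1 and 15.3 CPM in WT, 7.61 and 9.19 CPM in IDRmut and 7.71 and 5.92 CPM in Control (0.85 ± 0.11; edgeR adjusted p 2.1e-05), and PDCD1LG2, the ligand PD-L2, differed by 1.01 ± 0.22. VTCN1, another inhibitory ligand, was lower (-1.44) at 0.469 CPM in WT and 1.299 CPM in IDRmut. Of 14 checkpoint genes 7 were higher and 2 lower, and with DESeq2 4 higher and 1 lower. Dependent on 1 library were the edgeR calls of PDCD1LG2 without WT replicate 2 (adjusted p 0.087). In DESeq2 the threshold was missed by PDCD1LG2 (adjusted p 0.054).

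CXCL8, the neutrophil chemoattractant interleukin-8, had 17.6 and 17.1 CPM in WT, 2.55 and 2.32 CPM in IDRmut and 2.18 and 1.29 CPM in Control, so that only WT stood apart from the other libraries. The T-cell chemoattractant CXCL10 had 61 and 101 counts in WT, 8 and 8 in IDRmut and 0 and 0 in Control. CXCL11, which binds the same receptor, had 23 and 40 counts in WT, 2 and 1 in IDRmut and 0 and 0 in Control. The ratio of WT to IDRmut for CXCL11 was 16.3 (95% counting interval 5.33 to 81.1), and the fitted log2 difference for CXCL10 was 2.96 ± 0.28. CXCL14, a chemokine of epithelia, had 12.1 and 12.8 CPM in WT, 69.4 and 74.5 CPM in IDRmut and 0.406 and 0.645 CPM in Control and was 5.77-fold higher in IDRmut than in WT. The monocyte attractant CCL2 (-0.89) and the membrane-bound CX3CL1 (-0.84) were lower in WT as well. Of 10 chemokines 6 were higher and 4 lower. With DESeq2 these counts were 2 higher and 4 lower, and among genes with at least 1 CPM in each ACK1 library 1 was higher and 4 lower. That floor drops genes nearly absent from IDRmut, such as CXCL11, whatever their level in WT. CXCL10 and CXCL11 in turn passed the main filter only through WT, where they were high. The balance of higher and lower chemokines thus depends on the filter and cannot be read from these counts. Single libraries left out brought counts past 1.5 times, to 3 higher for chemokines without WT replicate 2.

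NF-kappaB, a family of transcription factors held inactive by inhibitors that are also its targets, showed a mixed picture. Of 22 genes 10 were higher in WT and 4 lower, and with DESeq2 6 higher and 1 lower. TNFAIP3, the deubiquitinase A20 that ends the signal, had 49.3 and 51.5 CPM in WT and 32.5 and 32.2 CPM in IDRmut (0.64 ± 0.06), and the survival ligase BIRC3 differed by 0.48. NFKB1 and RELA, the main subunits, were not called, and BCL3, a nuclear cofactor, was lower (-0.79 ± 0.06). Of 14 inflammatory cytokine and acute phase genes 4 were higher, with IL32 at 1.43 and IL11 at 0.70, and 5 lower, with IL6 at -0.95, CSF1 at -0.78 and the death ligand TNFSF10 at -1.07. IL1R1, the interleukin-1 receptor, was lower with 2.596 and 2.52 CPM in WT and 5.84 and 5.41 CPM in IDRmut. In the inflammasome list 0 of 11 were higher and 4 lower, CASP1 by 0.83 on the log2 scale. Where a left-out library moved a count by more than 1.5 times, it came to 6 higher for NF-kappaB genes, 1 lower for NF-kappaB genes and 2 lower for inflammasome genes without WT replicate 2. Next came 1 lower for NF-kappaB genes and 2 lower for inflammasome genes without WT replicate 1 and 1 higher for inflammasome genes without IDRmut replicate 2. Further values were 2 lower for NF-kappaB genes and 1 higher for inflammasome genes without IDRmut replicate 1 and 2 lower for NF-kappaB genes without Control replicate 2. Others were 2 lower for NF-kappaB genes without Control replicate 1. Calls lost without 1 library were IL32 without WT replicate 2 (adjusted p 0.08), IL6 without WT replicate 2 or IDRmut replicate 1 (adjusted p up to 0.5) and CASP1 without Control replicates 1 or 2 or WT replicates 1 or 2 or IDRmut replicate 2 (adjusted p up to 0.28) by edgeR. Not called by DESeq2 were IL6 (adjusted p 0.19).

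Complement, coagulation and prostaglandin genes went both ways. PTGES, prostaglandin E synthase, had 91.5 and 92.8 CPM in WT, 33.9 and 30.7 CPM in IDRmut and 106 and 113 CPM in Control (1.51 ± 0.06), so that IDRmut was low and WT nearer Control. PTGER4, a receptor for that prostaglandin, differed by 1.12 ± 0.13, and PTGS1, the constitutive cyclooxygenase, was lower in WT (-1.69). CFD, complement factor D, had 1.23 and 1.11 CPM in WT and 5.74 and 5.14 CPM in IDRmut (-2.23 ± 0.18). Of 21 complement and coagulation genes 8 were higher and 5 lower, and of 12 prostaglandin and nitric oxide genes 3 were higher and 3 lower.

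Many genes of BMP and TGF-beta signalling were higher in WT. Both ligands act through SMAD proteins; the ID proteins, which block helix-loop-helix factors, are the classic BMP targets. Of 22 BMP and ID genes 15 were higher and 0 lower, with a median of 0.41. ID2 had 169 and 163 CPM in WT, 86.4 and 88.8 CPM in IDRmut and 121 and 121 CPM in Control, and its 3 groups did not overlap (0.92 ± 0.04; edgeR adjusted p 7.0e-11). ID1, ID3 and ID4 differed by 0.56 ± 0.05, 0.81 ± 0.04 and 0.69 ± 0.05. ID1 stood at 210.3 CPM in Control, between WT (261 CPM) and IDRmut (178 CPM). The secreted BMP antagonist NOG differed by 0.95 ± 0.10, the activin antagonists FST and FSTL3 by 0.59 and 0.92, and the homeobox genes MSX1 and MSX2 by 0.71 and 1.25, MSX2 having 0 and 0 counts in Control. SMAD6 and SMAD7, inhibitors induced by the pathway, had 0.42 and 0.55.

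Of 23 TGF-beta response genes 12 were higher in WT and 4 lower, with a median of 0.19. TGFBI, a matrix protein, had 383 and 384 CPM in WT and 231 and 223 CPM in IDRmut (0.76 ± 0.04), and the ligand TGFB2 differed by 0.58. PMEPA1, a feedback inhibitor of the pathway, went the other way with 539 and 551 CPM in WT, 804 and 768 CPM in IDRmut and 881 and 863 CPM in Control (-0.53 ± 0.03). Among 25 targets of YAP and TEAD, which read cell shape and tension, 14 were higher and 3 lower. ANKRD1 had 346 and 352 CPM in WT, 182 and 205 CPM in IDRmut and 179 and 187 CPM in Control and AXL, a receptor kinase, 362 and 368 CPM in WT, 205 and 191 CPM in IDRmut and 288 and 290.4 CPM in Control. The matricellular proteins CCN1 and CCN2 differed by 0.35 and 0.51, YAP1 itself was not called (0.06), and its partner gene WWTR1 was lower (-0.44). The counts that depended on 1 library by more than 1.5 times came to 2 lower for TGF-beta genes without WT replicate 1.

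Immediate early genes, transcription factors that respond within minutes to growth factors or stress, were more often higher than lower in WT. Of 24 tested 10 were higher and 1 lower. ATF3 had 11.2 and 10.6 CPM in WT, 4.32 and 4.502 CPM in IDRmut and 1.83 and 1.72 CPM in Control (1.29 ± 0.11). KLF2, KLF4 and KLF6 differed by 0.90, 0.79 and 0.72, and the AP-1 subunits FOSL1 and JUN by 0.72 and 0.43. FOS was the exception, with 6.66 and 6.38 CPM in WT, 10.7 and 9.46 CPM in IDRmut and 13.9 and 13.7 CPM in Control (-0.63 ± 0.11). Of the MAPK feedback genes, which are induced by the ERK kinases and restrain them, 3 of 22 were higher and 6 lower. These shares were 13.6% and 27.3%, against 14.2% and 12.3% of all genes, so the higher share was near that of all genes. The phosphatase DUSP10, which acts on stress kinases, had 33.3 and 34.2 CPM in WT, 14.04 and 14.9 CPM in IDRmut and 19.7 and 19.9 CPM in Control (1.22 ± 0.07), whereas DUSP6, SPRY1 and SPRED1 had -0.25, -0.39 and -0.22; 40.5% of the DUSP6 exon bases overlap another gene. Leaving out 1 library moved some of these counts by more than 1.5 times, to 3 lower for MAPK feedback genes without WT replicate 2. Others were 3 lower for immediate early genes without IDRmut replicate 2. With 1 library fewer, edgeR no longer called DUSP6 without WT replicate 1 (adjusted p 0.057) and SPRED1 without WT replicate 2 (adjusted p 0.088).

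**Figure D3:**
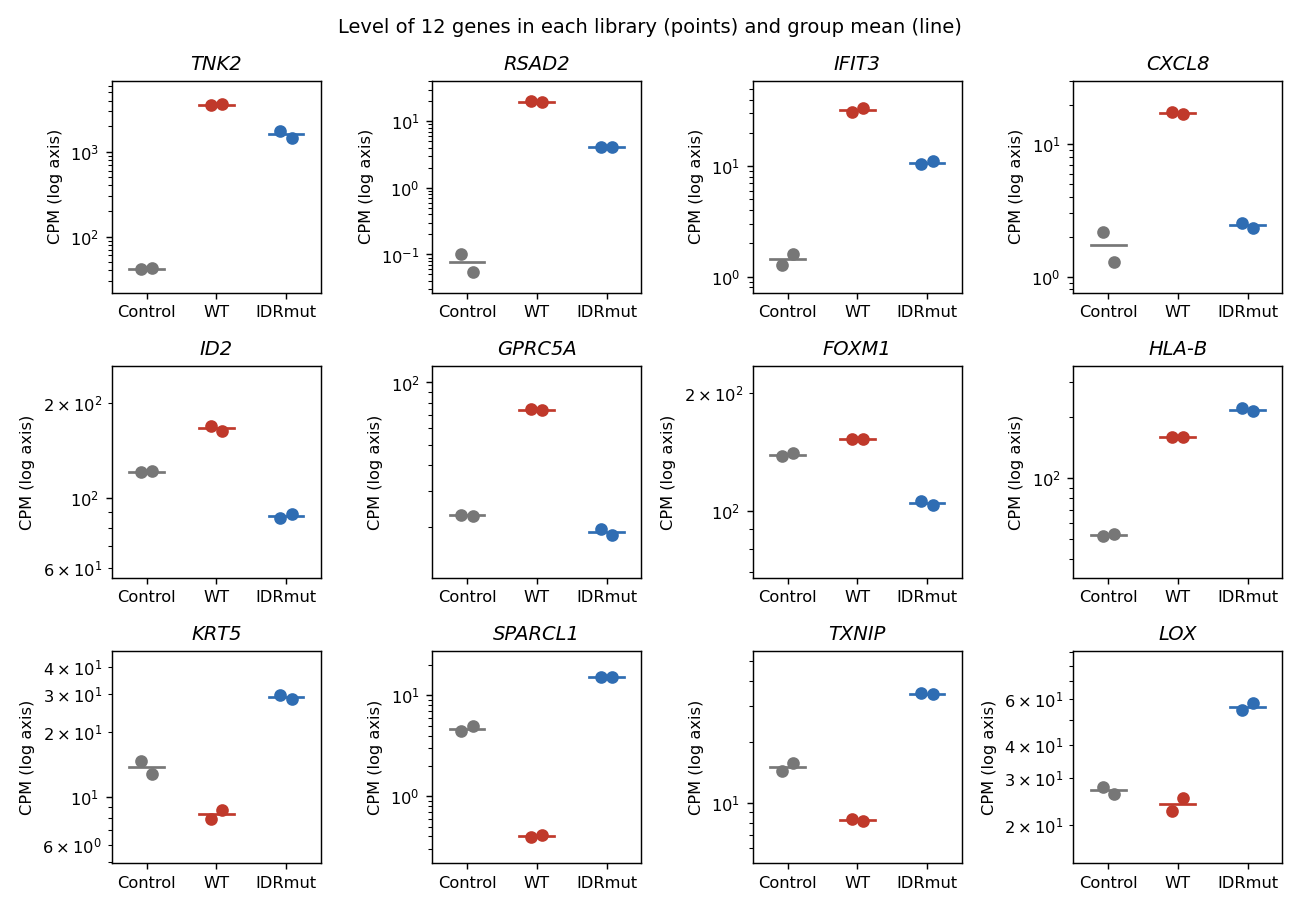
Level in CPM on a log axis of 12 genes in each of the 6 libraries; points are libraries and lines group means. TNK2, RSAD2, IFIT3 and CXCL8 lie in the order Control, IDRmut, WT, while GPRC5A, ID2, SPARCL1 and TXNIP have Control between the 2 ACK1 groups.

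Genes of squamous epithelia went both ways, and their regulators were more often lower than higher in WT. Keratins, the intermediate filaments that mark epithelial layers, were called in 7 cases higher and 9 lower of 17. KRT5, of the basal layer, had 7.93 and 8.69 CPM in WT, 29.5 and 28.4 CPM in IDRmut and 14.7 and 12.8 CPM in Control (-1.79 ± 0.09; edgeR adjusted p 1.7e-10), and its partner KRT14 had 636 and 608 CPM in WT, 993 and 888 CPM in IDRmut and 1414 and 1434 CPM in Control (-0.60 ± 0.04). KRT17 (-1.37) and KRT6A (-1.10), which rise in wounds, and KRT8 (-1.37), of simple epithelia, were lower as well. KRT8 was 28.2 CPM in WT, 72.5 CPM in IDRmut and 12.01 CPM in Control. KRT13, of moist stratified epithelia, was higher in WT, with 50.8 and 48.1 CPM in WT, 20.1 and 16.96 CPM in IDRmut and 16.8 and 17.5 CPM in Control (1.42 ± 0.07), and so was KRT18 (0.61), the usual partner of KRT8. Keratin genes have many processed copies, so reads may be split among them.

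Of 20 squamous regulators 3 were higher and 11 lower. TP63 and SOX2, which are amplified in many squamous lung tumours, had -0.28 ± 0.06 and -0.33 ± 0.04; SOX2 stood at 233 and 236 CPM in WT and 298 and 289.8 CPM in IDRmut. FAT2, a giant cadherin of squamous cells, had 3.67 and 3.25 CPM in WT, 17.04 and 15.6 CPM in IDRmut and 7.91 and 7.91 CPM in Control (-2.26 ± 0.11), and NECTIN4 and the epithelial factor ELF3 differed by -1.28 and -0.90. PAX9 (0.53) and KLF4 (0.79) were higher. Among cornified envelope genes 5 of 16 tested were higher and 2 lower, out of 39 listed. Desmosome and hemidesmosome genes were higher in 8 of 13 cases, with the plakophilin PKP3 at 0.71 and plakoglobin JUP at 0.38. They were lower in 4, with DSP, desmoplakin, at -0.47 and COL17A1 at -0.51. DESeq2 called 5 desmosome and hemidesmosome genes higher and 3 lower. With 1 library left out, some counts moved by more than 1.5 times, to 2 higher for cornified envelope genes, 4 higher for desmosome genes and 2 lower for desmosome genes without WT replicate 2. The remaining values were 1 higher for squamous regulators, 3 higher for cornified envelope genes and 1 lower for cornified envelope genes without WT replicate 1 and 5 higher for desmosome genes without IDRmut replicate 2. Also counted were 3 higher for cornified envelope genes and 1 lower for cornified envelope genes without IDRmut replicate 1. The calls that depended on 1 library in edgeR were TP63 without WT replicate 2 (adjusted p 0.11), PAX9 without WT replicate 1 or IDRmut replicate 2 (adjusted p up to 0.26) and PKP3 without WT replicate 2 or IDRmut replicate 2 (adjusted p up to 0.23). DESeq2 did not call PAX9 (adjusted p 0.18) and PKP3 (adjusted p 0.15).

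Genes of cell adhesion and of the mesenchymal state were divided. Of 20 tested 6 were higher in WT and 7 lower. The repressors SNAI2 and ZEB2 differed by 1.19 ± 0.20 and 0.95 ± 0.08, while ZEB1 was not called (-0.08). The collagen cross-linker LOX had 22.6 and 25.3 CPM in WT, 54.4 and 57.7 CPM in IDRmut and 27.9 and 26.1 CPM in Control (-1.22 ± 0.06). CDH5, the endothelial cadherin, had 39.2 and 39.7 CPM in WT, 93.97 and 90.5 CPM in IDRmut and 210.3 and 216 CPM in Control and was lower in WT (-1.22 ± 0.05). In the list of endothelial markers 2 of 7 tested were higher and 2 lower, TEK being higher (0.97). CDH2 and CDH3 were not called (0.11 and -0.18). Integrins, the matrix receptors, were higher in 6 and lower in 5 of 16 cases, the alpha chain ITGA4 with 3.13 and 2.43 CPM in WT and 1.08 and 1.36 CPM in IDRmut and ITGA11 at -2.22; ITGA11 had 0.606 CPM in WT and 2.92 CPM in IDRmut. With DESeq2 the integrin counts were 4 higher and 5 lower. Counts that moved by more than 1.5 times without 1 library came to 1 higher for endothelial markers and 3 higher for integrins without WT replicate 2. Also counted were 1 lower for endothelial markers without WT replicate 1 and 1 higher for endothelial markers and 1 lower for endothelial markers without IDRmut replicate 1.

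Secreted matrix genes held the largest fall. Of 31 matricellular proteins and proteoglycans 15 were lower in WT and 5 higher. SPARCL1, a relative of the collagen-binding protein SPARC, had 0.392 and 0.409 CPM in WT, 15.2 and 15.1 CPM in IDRmut and 4.41 and 4.95 CPM in Control, and its IDRmut level was 37.2-fold that of WT (-5.22 ± 0.17; edgeR adjusted p 1.0e-12). SPARC itself had 1112 and 1116 CPM in WT and 1420 and 1430 CPM in IDRmut (-0.36 ± 0.03). The small proteoglycan BGN, biglycan, had 2.99 and 2.84 CPM in WT, 10.3 and 9.91 CPM in IDRmut and 2.64 and 2.15 CPM in Control (-1.80 ± 0.13), ABI3BP had 4.898 and 5.82 CPM in WT, 19.4 and 19.96 CPM in IDRmut and 7 and 6.35 CPM in Control (-1.85 ± 0.10), and the fibulin FBLN2 differed by -1.36. SULF2, which trims heparan sulfate, was higher (0.87 ± 0.04). Thrombospondin THBS1, at 2722 CPM in WT, was not called (0.05).

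Of 24 collagen genes and their enzymes 8 were lower and 3 higher. COL1A2, COL5A2, COL11A1 and COL14A1 had -0.39, -0.54, -0.63 and -1.15, and COL14A1 stood at 206 and 206 CPM in WT, 455 and 458 CPM in IDRmut and 323 and 328 CPM in Control. Laminins and basement membrane genes were lower in 9 and higher in 5 of 19 cases, with the proteoglycan HSPG2 at -0.85. Markers of fibroblasts moved with these genes: of 9 tested 5 were lower and none higher in WT, PDGFRA with 28.1 and 30.97 CPM in WT, 57.1 and 58.4 CPM in IDRmut and 56.5 and 59.1 CPM in Control (-0.96 ± 0.06) and THY1 with -0.85. The summed level of all 12 listed fibroblast markers was 877 and 890.3 CPM in WT, 1183 and 1119 CPM in IDRmut and 1055 and 1074 CPM in Control. Of the markers that define fibroblasts, LUM had 2, 0, 5, 2, 2 and 3 counts and DCN 1, 0, 2, 4, 4 and 1 counts over the Control, WT and IDRmut libraries, and COL1A1, named after its value was seen, stood under 2 CPM in each library. The part of such cells in the matrix differences was not tested. In bulk samples fewer cells of a type and less RNA per cell cannot be told apart. Single libraries left out brought counts past 1.5 times, to 3 higher for matricellular genes without WT replicate 2. Beyond these there were 9 higher for laminins without IDRmut replicate 1.

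Most mitotic genes were higher in WT, by small amounts. Of 58 genes that drive chromosome condensation, spindle assembly and division 46 were higher and 1 lower, with a median of 0.27. FOXM1, the transcription factor that switches them on, had 153 and 152 CPM in WT, 106 and 104 CPM in IDRmut and 138 and 140.5 CPM in Control (0.54 ± 0.04; edgeR adjusted p 2.8e-08). The checkpoint kinase BUB1 differed by 0.42 ± 0.04, the activator CDC20 by 0.35 ± 0.04 and the phosphatase CDC25C by 0.60 ± 0.10, while the kinases AURKA, AURKB and PLK1 had 0.26, 0.27 and 0.23. MKI67, the proliferation marker, stood at 1100 and 1073 CPM in WT, 843 and 875 CPM in IDRmut and 1188 and 1221 CPM in Control (0.34 ± 0.03). CCNB1 and CDK1, the core of the mitotic kinase, were not called, CDK1 at 0.08, and CDC25B, named after its value was seen, was the 1 lower member (-0.14). Leaving out 1 library ended the edgeR calls of CDC25B without WT replicate 1 (adjusted p 0.17).

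DNA replication genes were higher in 23 and lower in 1 of 53 cases, with a median of 0.09. Against Control the median log2 fold change of this list was -0.228 in WT and -0.269 in IDRmut, so that both lay below Control. The nucleotide synthesis enzymes TK1 and RRM2 led (0.43 ± 0.04 and 0.42 ± 0.03), whereas the helicase subunit MCM2 and the clamp PCNA were not called (0.10 and 0.01). Of 69 replication-dependent histone genes 16 passed the filter, and of these 9 were higher and 0 lower, against 2 higher and 0 lower with DESeq2. H4C8 had 2.596 and 2.75 CPM in WT, 1.23 and 1.23 CPM in IDRmut and 0.406 and 0.753 CPM in Control (1.13 ± 0.23). Their messages mostly lack poly-A tails, which the library protocol selects for, and they are near-identical copies. The G1 inhibitor CDKN1A, a p53 target, had 60.4 and 62.2 CPM in WT, 42.2 and 38.6 CPM in IDRmut and 26.6 and 26.9 CPM in Control (0.60 ± 0.06), and E2F7 and E2F8, repressors of replication genes, differed by 0.54 and 0.39. Of 22 G1 regulators 9 were higher and 4 lower; CCND1 was not called (-0.05). DNA repair genes were higher in 10 and lower in 3 of 41 cases. DESeq2 called 4 of them higher and 0 lower, against 1335 and 1183 of all 16591 genes. Where a left-out library moved a count by more than 1.5 times, it came to 9 higher for replication genes, 0 lower for replication genes, 5 higher for histone genes, 5 higher for repair genes and 0 lower for repair genes without WT replicate 2. Next came 0 lower for mitotic genes, 13 higher for replication genes, 5 higher for histone genes, 3 higher for repair genes and 1 lower for repair genes without WT replicate 1 and 6 lower for replication genes, 6 higher for repair genes and 5 lower for repair genes without IDRmut replicate 1.

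Genes of p53 and of apoptosis were higher more often than lower. Of 27 p53 targets 8 were higher and 2 lower, with the stress cytokine GDF15 at 21.2 and 20.5 CPM in WT, 12.2 and 12.2 CPM in IDRmut and 4.41 and 5.701 CPM in Control (0.77 ± 0.09) and the growth arrest gene GADD45A at 0.78 ± 0.05. MDM2, the ligase that degrades p53, was not called (-0.06). DESeq2 called 5 of the p53 targets higher and 1 lower. Of 28 BCL2 family and apoptosis genes 12 were higher and 2 lower, and with DESeq2 6 higher and 0 lower. The death activators BIK, PMAIP1 and BAX had 0.87, 0.51 and 0.36, and the survival genes BIRC2, BIRC3 and BCL2L1 had 0.39, 0.48 and 0.20, so that members of opposite function were higher together. BCL2L11, the death activator BIM, was lower (-0.29) and MCL1 was not called (-0.07). The counts that depended on 1 library by more than 1.5 times came to 5 higher for p53 targets, 7 higher for BCL2 family genes and 0 lower for BCL2 family genes without WT replicate 2. Further values were 5 higher for p53 targets, 1 lower for p53 targets and 1 lower for BCL2 family genes without WT replicate 1 and 1 lower for BCL2 family genes without Control replicate 2. Others were 1 lower for BCL2 family genes without Control replicate 1. Calls lost without 1 library were BCL2L11 without WT replicate 2 or IDRmut replicate 1 (adjusted p up to 0.26) by edgeR. In DESeq2 the threshold was missed by BIK (adjusted p 0.062) and BCL2L11 (adjusted p 0.2).

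More than 1 in 2 of the genes that make ribosomes were lower in WT. Of 44 ribosome biogenesis genes 26 were lower and 0 higher, with a median of -0.19. NOP16, a nucleolar protein, had 48.4 and 48.2 CPM in WT, 61.6 and 62.4 CPM in IDRmut and 55.5 and 53.03 CPM in Control (-0.36 ± 0.05), the RNA polymerase I subunit POLR1C differed by -0.32 ± 0.05, and NOLC1 by -0.30 ± 0.04. FBL and NPM1, 2 of the most abundant nucleolar proteins, were not called (-0.03 and -0.05). MYC, a transcription factor known to drive such genes, had 96.8 and 101 CPM in WT, 156 and 145 CPM in IDRmut and 107 and 104 CPM in Control (-0.60 ± 0.05; edgeR adjusted p 4.1e-08). In the MYC network 2 of 16 genes were higher and 6 lower, with MXI1, an antagonist of MYC, at -0.47. The MYC network shares were 12.5% and 37.5%, against 14.2% and 12.3% of all genes.

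Ribosomal protein genes were lower in 30 and higher in 0 of 79 cases by a median of -0.07; in the highest of 5 expression classes of all genes 23.4% were lower. RPL22 had 109.7 and 118 CPM in WT, 153 and 152 CPM in IDRmut and 149 and 146 CPM in Control (-0.42 ± 0.04) and RPL3 -0.26. Translation factors were lower in 13 and higher in 3 of 33 cases, and EEF1A1, the elongation factor that brings aminoacyl-tRNA, had -0.19 ± 0.03. Unfolded protein response genes, which include chaperones of the endoplasmic reticulum, were lower in 10 and higher in 0 of 28 cases, HSP90B1 by 0.30 and PDIA4 by 0.29 on the log2 scale, while HSPA5 was not called (-0.07). Splicing factors were lower in 13 and higher in 6 of 42 cases, led by SRSF7 (-0.41 ± 0.04), SRSF6 (-0.39 ± 0.04) and SRSF3 (-0.38 ± 0.04). SRSF7 stood at 229 and 235 CPM in WT, 302 and 313 CPM in IDRmut and 328 and 310.4 CPM in Control. Leaving out 1 library moved some of these counts by more than 1.5 times, to 1 higher for MYC network genes, 3 lower for MYC network genes, 16 lower for ribosomal protein genes, 0 higher for translation factors, 6 lower for translation factors and 5 lower for unfolded protein genes without WT replicate 2. Others were 1 higher for MYC network genes, 7 lower for translation factors and 6 lower for unfolded protein genes without WT replicate 1 and 1 higher for MYC network genes, 5 higher for ribosomal protein genes and 1 higher for unfolded protein genes without IDRmut replicate 2. The remaining values were 4 higher for ribosomal protein genes without IDRmut replicate 1.

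Proteasome subunits were higher in 17 and lower in 0 of 37 cases, with a median of 0.10; PSMC3, a base ATPase, had 186 and 182 CPM in WT and 154 and 145 CPM in IDRmut (0.30 ± 0.04). Cytosolic chaperones were higher in 6 and lower in 3 of 31 cases, and the small heat shock protein CRYAB stood out with 58.5 and 55.4 CPM in WT, 23.3 and 22.9 CPM in IDRmut and 5.48 and 5.38 CPM in Control (1.30 ± 0.06). The chaperone shares, 19.4% and 9.68%, were near the 14.2% and 12.3% of all genes. Of 37 genes of ATF4 and amino acid stress 10 were higher and 5 lower. The leucine transporter SLC7A5 had 375 and 387 CPM in WT, 273 and 249 CPM in IDRmut and 189.6 and 185 CPM in Control (0.55 ± 0.04) and the tryptophanyl-tRNA synthetase WARS1, also induced by interferon gamma, 125 and 126 CPM in WT, 77.4 and 82.4 CPM in IDRmut and 54.9 and 55.9 CPM in Control (0.65 ± 0.04). ATF4 itself was lower in WT (-0.27) and CHAC1 and TRIB3 were not called (-0.06 and 0.18). With 1 library left out, some counts moved by more than 1.5 times, to 7 higher for proteasome subunits and 3 lower for ATF4 genes without WT replicate 2. The remaining values were 6 higher for proteasome subunits and 3 lower for ATF4 genes without WT replicate 1 and 8 lower for ATF4 genes without IDRmut replicate 2. Also counted were 7 lower for chaperones without IDRmut replicate 1.

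**Figure D4:**
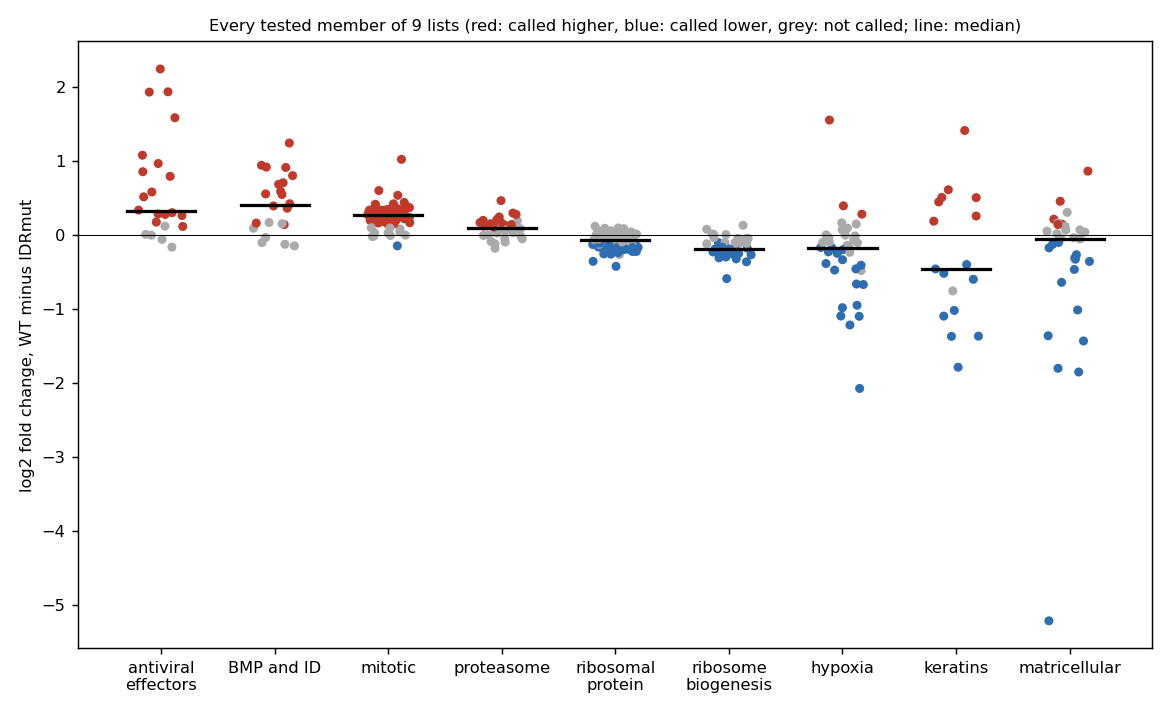
Log2 fold change, WT minus IDRmut, of every tested member of 9 lists; red points were called higher, blue lower and grey not called, and the black line is the median. Most mitotic genes lie close to their median of 0.27 and most ribosome biogenesis genes close to -0.19, whereas matricellular genes reach from 0.87 (SULF2) to -5.22 (SPARCL1).

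Hypoxia response and glycolysis genes were more often lower than higher in WT. The factor HIF1A, stabilised when oxygen is low, switches on enzymes of glycolysis, pH control and blood vessel growth. Of 37 hypoxia genes 18 were lower and 3 higher, with a median of -0.17. CA9, a carbonic anhydrase whose promoter is printed above, had 3.33 and 3.51 CPM in WT, 14.5 and 14.5 CPM in IDRmut and 5.12 and 4.95 CPM in Control (-2.07 ± 0.11; 38.5% of its exon bases overlap another gene). NDRG1 had 95.7 and 92.8 CPM in WT, 191 and 180.4 CPM in IDRmut and 162 and 172 CPM in Control (-0.98 ± 0.04), the oxygen sensor EGLN3 15.5 and 15.2 CPM in WT, 31.7 and 27.6 CPM in IDRmut and 19.99 and 20.2 CPM in Control (-0.95 ± 0.08), and VEGFA, the vessel growth factor, differed by -0.66 ± 0.05. The order of the groups was not shared: Control lay near IDRmut for NDRG1 and near WT for EGLN3 and CA9. HIF1A differed by -0.17 ± 0.03, and the higher genes included STC2 and P4HA2, of which P4HA2 was chosen after its values were seen.

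Of 24 glycolysis genes 9 were lower and 1 higher. Hexokinase HK2 had 34.8 and 36.9 CPM in WT, 62.5 and 64.4 CPM in IDRmut and 54.99 and 55.5 CPM in Control (-0.82 ± 0.05), PGK1 and GPI had -0.33 and -0.33, and the brain-type aldolase ALDOC had 7.98 and 10.2 CPM in WT and 25.2 and 23.2 CPM in IDRmut (-1.37 ± 0.10). GAPDH and the glucose transporter SLC2A1 were not called (-0.07 and -0.02). TXNIP, an inhibitor of glucose uptake that rises with glucose, had 8.38 and 8.19 CPM in WT, 34.8 and 34.5 CPM in IDRmut and 14.4 and 15.7 CPM in Control (-2.07 ± 0.08; edgeR adjusted p 7.5e-12), and its relatives ARRDC4 and ARRDC3 differed by -1.004 ± 0.14 and -0.63 ± 0.05. In that list 2 of 10 genes were higher and 4 lower. Counts that moved by more than 1.5 times without 1 library came to 0 higher for glycolysis genes and 0 higher for arrestin genes without WT replicate 2. Also counted were 0 higher for glycolysis genes without WT replicate 1 and 0 higher for glycolysis genes and 1 higher for arrestin genes without IDRmut replicate 2. Beyond these there were 2 higher for glycolysis genes and 4 higher for arrestin genes without IDRmut replicate 1.

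Redox, iron and metal genes were split by branch. Of 35 pentose phosphate and NRF2 genes 14 were higher and 9 lower. Heme oxygenase HMOX1 had 38.8 and 37.2 CPM in WT, 17.2 and 16.8 CPM in IDRmut and 12.5 and 13.2 CPM in Control (1.16 ± 0.07), the quinone reductase NQO1 differed by 0.34, and the ferritin chains FTL and FTH1 by 0.54 and 0.52. The aldehyde and ketone enzymes ALDH3A1 and AKR1C3 were lower (-1.11 ± 0.07 and -0.74 ± 0.04); AKR1C1 to AKR1C3 are near-identical, so their reads may be split. Ceruloplasmin CP, a copper-carrying iron oxidase, had 2.15 and 1.73 CPM in WT, 10.9 and 11.96 CPM in IDRmut and 1.37 and 1.02 CPM in Control (-2.60 ± 0.15), against 8 higher and 4 lower of 18 iron genes. Metallothioneins, which bind zinc and copper, were lower in 5 of 6 cases: MT1X had 27.3 and 25.8 CPM in WT, 72.5 and 69.99 CPM in IDRmut and 62.6 and 69.7 CPM in Control (-1.43 ± 0.06), MT1E -0.64 and MT2A -0.26, with the same doubt about near-identical copies. Single libraries left out brought counts past 1.5 times, to 2 lower for iron genes without WT replicate 2. Beyond these there were 2 lower for iron genes without WT replicate 1.

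Of the transcripts encoded in mitochondrial DNA 10 were lower and 0 higher of 31 tested, the large ribosomal RNA MT-RNR2 by 0.78 and MT-ATP6 by 0.40 on the log2 scale. Nuclear genes of the respiratory chain were lower in 10 and higher in 3 of 80 cases, near or below the 12.3% and 14.2% of all genes. Sterol genes were higher in 12 and lower in 5 of 32 cases. SREBF2, the transcription factor that switches on sterol genes, was lower (-0.37 ± 0.04). Among nutrient transporters 8 of 26 were higher and 6 lower, with SLC6A6, which carries taurine, at 199.8 and 199 CPM in WT, 404 and 408 CPM in IDRmut and 314 and 312 CPM in Control (-1.02 ± 0.03) and SLC5A3, which carries inositol, at -0.90 ± 0.03. Where a left-out library moved a count by more than 1.5 times, it came to 5 lower for respiratory chain genes, 7 higher for sterol genes and 3 lower for sterol genes without WT replicate 2. Next came 4 lower for respiratory chain genes and 3 lower for sterol genes without WT replicate 1 and 8 higher for respiratory chain genes without IDRmut replicate 2. Further values were 16 lower for mitochondrial transcripts and 5 higher for respiratory chain genes without IDRmut replicate 1.

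Of 24 partners and substrates, TNK2 included, 8 were higher and 2 lower. The adaptor BCAR1 had 84.3 and 84.9 CPM in WT, 63.2 and 52.5 CPM in IDRmut and 63.8 and 66.5 CPM in Control (0.55 ± 0.06), the ligase NEDD4, which ubiquitinates ACK1, differed by 0.26 ± 0.04, the sorting nexin SNX9 by 0.13 ± 0.04 and the kinase SRC by 0.38 ± 0.14. Clathrin endocytosis genes were higher in 12 and lower in 1 of 40 cases, and with DESeq2 in 7 and 0. The membrane-bending BIN1 had 13.96 and 14.5 CPM in WT and 9.77 and 9.28 CPM in IDRmut (0.59 ± 0.09), the adaptor EPS15 differed by 0.34 ± 0.05, and CLTC, the clathrin heavy chain, was not called (0.05). Actin and small GTPase genes were higher in 20 and lower in 3 of 44 cases. RHOB, an endosomal small GTPase, had 88.95 and 89.2 CPM in WT, 61.2 and 52.8 CPM in IDRmut and 43.2 and 41.4 CPM in Control (0.65 ± 0.06), the filopodial motor MYO10 differed by 0.73 ± 0.06 and ACTB by 0.24 ± 0.03. The counts that depended on 1 library by more than 1.5 times came to 4 higher for ACK1 partners, 0 lower for ACK1 partners, 5 higher for endocytosis genes and 1 lower for actin genes without WT replicate 2. Further values were 5 higher for ACK1 partners and 1 lower for ACK1 partners without WT replicate 1 and 1 lower for ACK1 partners without IDRmut replicate 2. Others were 4 lower for endocytosis genes without IDRmut replicate 1. With 1 library fewer, edgeR no longer called SNX9 without Control replicates 1 or 2 or WT replicates 1 or 2 or IDRmut replicates 1 or 2 (adjusted p up to 0.31) and SRC without WT replicates 1 or 2 or IDRmut replicates 1 or 2 (adjusted p up to 0.2). Not called by DESeq2 were SNX9 (adjusted p 0.21) and SRC (adjusted p 0.33).

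Receptor kinases went both ways, 4 higher and 8 lower of 27. ERBB2 was lower by a small amount (-0.14 ± 0.05). NTRK2, the receptor of brain-derived neurotrophic factor, had 23.9 and 23.98 CPM in WT, 61.7 and 67.6 CPM in IDRmut and 51.1 and 50.1 CPM in Control (-1.43 ± 0.06). Targets attributed to STAT5 were divided, with 6 higher and 5 lower of 20 tested. SOCS2, an inhibitor of cytokine receptors, had 7.15 and 7.25 CPM in WT, 3.93 and 4.05 CPM in IDRmut and 1.37 and 1.34 CPM in Control (0.85 ± 0.13), and the anti-apoptotic BCL2L1 differed by 0.20 ± 0.04. BCL6, a repressor that competes with STAT5, was lower (-0.38 ± 0.06), as were MYC and FOS, given above. CISH, PIM1 and CCND1 were not called, CISH at 0.637 and 0.556 CPM in WT and 0.736 and 0.819 CPM in IDRmut (-0.40) and PIM1 at 0.09. Of 16 cytokine signal inhibitors 3 were higher and 2 lower, SOCS5 by 0.55 on the log2 scale. The inhibitor shares, 18.8% and 12.5%, were near the 14.2% and 12.3% of all genes. Leaving out 1 library moved some of these counts by more than 1.5 times, to 1 lower for cytokine inhibitors without WT replicate 1. Others were 5 higher for cytokine inhibitors without IDRmut replicate 1. Dependent on 1 library were the edgeR calls of ERBB2 without Control replicates 1 or 2 or WT replicates 1 or 2 or IDRmut replicate 1 (adjusted p up to 0.23). In DESeq2 the threshold was missed by ERBB2 (adjusted p 0.12).

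**Figure D5:**
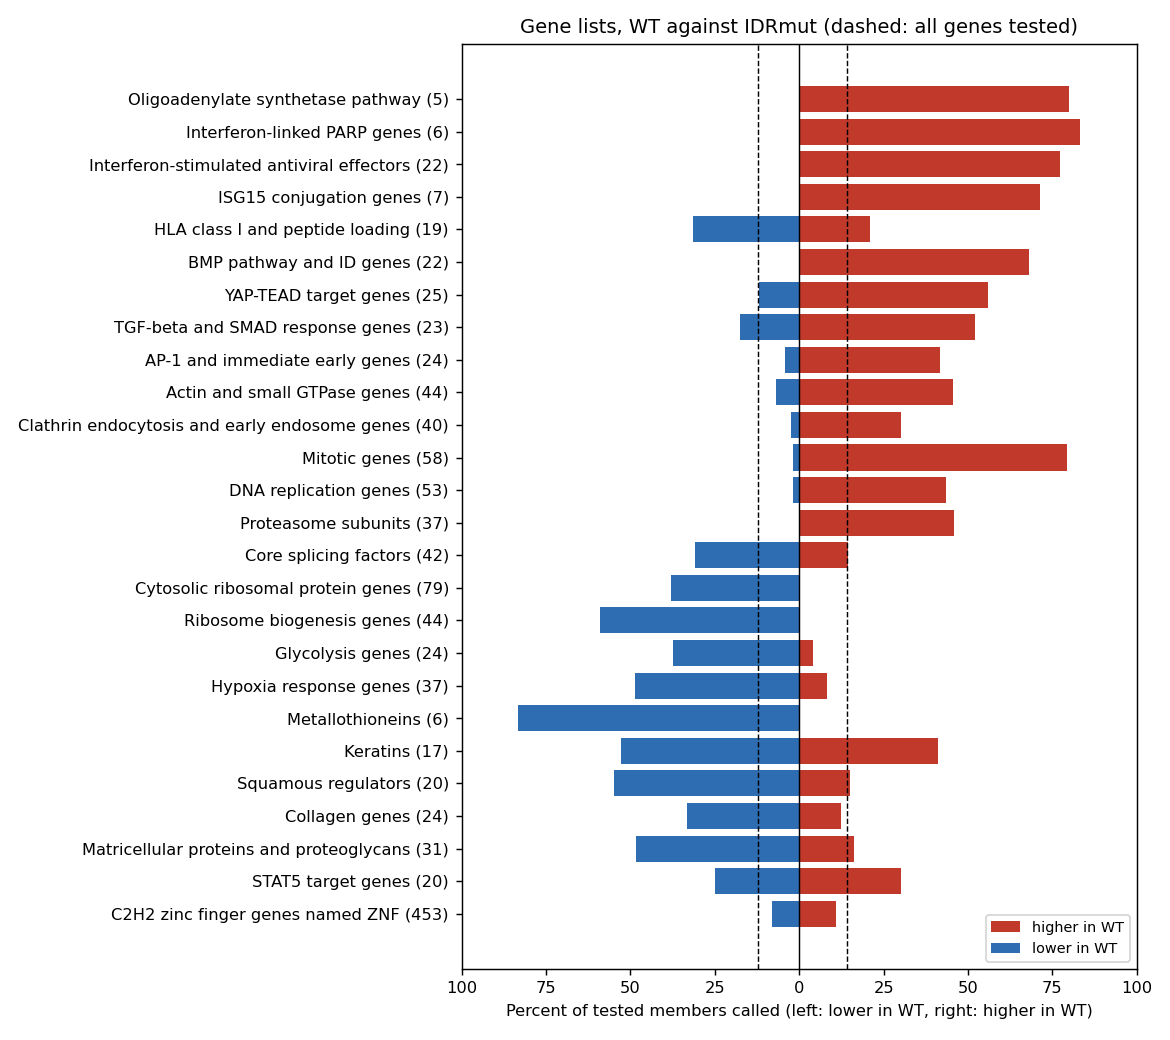
Percent of tested members called higher (red, to the right) and lower (blue, to the left) in WT for 26 lists, with the number tested in brackets; dashed lines mark 14.2% higher and 12.3% lower over all genes tested. Antiviral, PARP, BMP and mitotic lists lie far to the right, metallothioneins and ribosome biogenesis genes to the left, STAT5 targets pass both dashed lines and ZNF genes stay inside them.

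Among 453 C2H2 zinc finger genes named ZNF 50 were higher and 36 lower, both shares below the 14.2% and 12.3% of all genes. With DESeq2 these counts were 16 higher and 15 lower, against 1335 and 1183 of all 16591 genes. The families that follow were called in both directions. Potassium channels were higher and lower in 7 cases each of 35. Notch genes were higher in 3 and lower in 4 of 21 cases, with the target HEY1 at -0.81 ± 0.14 and the ligand JAG1 at 0.39 ± 0.04. WNT genes were lower in 10 and higher in 6 of 29 cases, among them the target AXIN2 (-0.68 ± 0.13) and the stem cell receptor LGR5 (-0.99 ± 0.10), which were lower, and WNT5B (1.17 ± 0.11), which was higher. Of 18 clock genes 4 were higher and 5 lower, with PER2 at -0.86 ± 0.08 and BHLHE41 at 0.97 ± 0.11. By chromosome the median log2 fold change of the autosomes and the X chromosome lay between -0.0359 (chromosome 21) and 0.0484 (chromosome 13), and that of the mitochondrial DNA was -0.135. With 1 library left out, some counts moved by more than 1.5 times, to 24 higher for ZNF genes, 14 lower for ZNF genes, 4 higher for potassium channels and 3 higher for WNT genes without WT replicate 2. The remaining values were 29 higher for ZNF genes, 19 lower for ZNF genes and 1 higher for Notch genes without WT replicate 1.

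Lineage factors and the remaining genes with the largest differences follow. Of 27 lineage factors 12 were higher and 4 lower: GATA2, of blood and endothelium, had 9.55 and 11.1 CPM in WT, 4.03 and 3.18 CPM in IDRmut and 5.12 and 4.41 CPM in Control (1.54 ± 0.14), GATA3 differed by 0.75 ± 0.09 and TBX3 by 0.80 ± 0.05. GPRC5A, a retinoic acid-induced receptor of lung epithelium, had 74.5 and 73.2 CPM in WT, 19.6 and 18.3 CPM in IDRmut and 22.9 and 22.8 CPM in Control (1.96 ± 0.06), and STRA6, the retinol transporter, 8.62 and 8.92 CPM in WT, 1.96 and 2.77 CPM in IDRmut and 0.406 and 0.269 CPM in Control (1.88 ± 0.15). GBP5, an interferon-induced GTPase, had 10.3 and 10.3 CPM in WT, 3.09 and 3.23 CPM in IDRmut and 0.507 and 0.377 CPM in Control (1.70 ± 0.12), and PCDH1, a protocadherin of airway epithelium, 26.3 and 28.6 CPM in WT, 8.98 and 8.96 CPM in IDRmut and 2.08 and 1.56 CPM in Control (1.62 ± 0.09). PLCXD3 and the long noncoding RNAs MANCR and AC006058.1 differed by 1.56, 1.72 and 1.53. Of the lineage factors, DESeq2 called 7 higher and 3 lower.

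Among the falls, KYNU, an enzyme of tryptophan breakdown, had 1.96 and 1.55 CPM in WT, 7.41 and 8.96 CPM in IDRmut and 2.74 and 2.31 CPM in Control (-2.26 ± 0.17), and FOLR1, a folate receptor, 1.71 and 1.46 CPM in WT, 6.48 and 7.05 CPM in IDRmut and 2.28 and 1.99 CPM in Control (-2.11 ± 0.16). PI15, a secreted protease inhibitor, had 19.1 and 21 CPM in WT, 84.1 and 86.6 CPM in IDRmut and 20.2 and 19.8 CPM in Control (-2.08 ± 0.06), so that WT lay at the level of Control and IDRmut above both. SYT12, a synaptotagmin, had 26.8 and 24.7 CPM in WT, 105 and 95.5 CPM in IDRmut and 43.6 and 42.3 CPM in Control (-1.97 ± 0.06). SSC5D, a scavenger receptor, and NXPH4, a neurexophilin, differed by -1.84 ± 0.20 and -1.82 ± 0.17, and SSC5D stood at 1.52 and 1.67 CPM in WT, 6.87 and 4.73 CPM in IDRmut and 2.99 and 3.39 CPM in Control. NXPH4 was at 1.32 and 1.73 CPM in WT, below 5.695 and 5.46 CPM in IDRmut and 5.33 and 4.52 CPM in Control. Counts that moved by more than 1.5 times without 1 library came to 2 lower for lineage factors without WT replicate 2.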

How the data were processed

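Gene expression was measured by RNA sequencing of poly-A RNA in 6 libraries, 2 per group. The authors deposited whole-number read counts per Ensembl gene; HISAT2 2.2.1, SAMtools 1.14 and featureCounts 2.0.1 with GRCh38 are named per the submitters' processing notes, while the sources used here do not give the release of the annotation, strandedness or the handling of multi-mapping reads. Of 61487 gene IDs, 42045 had a current name, 16375 a name from GENCODE 29 and 3067 none. Genes were kept with filterByExpr (minimum count 10), which left 16591 holding at least 99.85% of counts in every library. Counts were scaled by TMM and tested with edgeR 4.0.16 (quasi-likelihood, R 4.3.3) over all 6 libraries, as WT minus IDRmut, with Benjamini-Hochberg adjustment and a threshold of 0.05. The SE is the log2 fold change divided by the square root of its F. The procedure was tested on simulated data with the same spread in every group, whereas the real IDRmut pair differed more than the WT pair.

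Named genes were TNK2, STAT5A and STAT5B, the 15 called genes with the largest change in each direction (at least 5 CPM in the higher group, no overlap between the groups), the defining members marked in each list, and up to 5 further called members with the largest change; others are said to be chosen after their values were seen, and some genes the rule names are not reported here. The members and lists were chosen with earlier results of these data known. Lists came from general knowledge, and families near-identical in sequence may share reads. Alternatives were other scalings and filters, only the 4 ACK1 libraries, thinning, a replicate block, GC and length correction, glmTreat, DESeq2 1.42.0 and leaving out each library. The sources used here do not say whether replicate numbers pair the samples, and the main model had no block. Intervals on count ratios cover counting error only.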

Additional observations from a re-analysis of the deposited data

Results flagged for a closer look

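Among the 15 genes with the largest change in each direction, 8 are reported here for which edgeR called the 2 ACK1 groups on opposite sides of Control. They were picked by the contrast of WT with IDRmut, so its values add no support to the pattern. The share of all genes tested with this pattern was not counted. Values are log2 differences, and both comparisons with Control share its libraries. In 7 of the 8 genes WT was below and IDRmut above Control. SPARCL1 had -3.52 in WT and 1.70 in IDRmut against Control, with -5.22 for WT against IDRmut. FAT2 had -1.21 and 1.04, a difference of -2.26. CFD had -1.40 and 0.83, a difference of -2.23. For CA9 they were -0.55 and 1.52, with -2.07 between the forms, and for TXNIP -0.86 and 1.202, with -2.07. SYT12 had -0.75 and 1.22 (-1.97 between the forms), and SSC5D had -0.98 and 0.86 (-1.84). In the other, WT was above and IDRmut below Control: GPRC5A had 1.69 and -0.27, a difference of 1.96.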

How the results depend on the processing

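Of the 279 genes named besides TNK2, none changed direction while called under any alternative run, and no call changed under upper-quartile or RLE scaling. DESeq2 gave an adjusted p for 266 of the 279, so calls lost with it are counted among those only. The paragraphs above name most but not all of the calls lost with DESeq2 or without 1 library. The filter of at least 1 CPM in each ACK1 library kept 260. The count of 4396 called genes was 2518 with DESeq2 and 1069 when glmTreat tested against a fold of 1.2, which by construction asks for a larger change. Thinning all libraries to equal depth gave 4031. The count at 1.5-fold or more, 1061, was 594 with DESeq2. With 1 library left out, the first count ranged from 2590 (without WT replicate 2, the deepest library) to 4761 and the second from 806 to 1073, and the TNK2 difference from 1.02 to 1.29; an arm of 1 library is then assumed to vary like the others. Calls of named genes were lost for 20 without WT replicate 2, 14 without WT replicate 1, 7 without IDRmut replicate 2, 8 without IDRmut replicate 1, 5 without either Control library, 15 with DESeq2 and 65 with glmTreat. Of 152 counts of higher or lower genes in the lists, 51 moved by more than 1.5 times without WT replicate 2, 36 without WT replicate 1, 45 with DESeq2 and 117 with glmTreat.

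The replicate block gave 3966 and 999 genes, and 4 named genes lost their call. No pairing by number was seen: over 2 pairs the deviations of same-numbered WT and IDRmut libraries correlated at -0.0294. That value weighs all genes alike and rests on 2 libraries per group, so it cannot exclude shared batches. GC and length correction gave 5584 genes, of which 51.7% were higher against 53.5%, and with the block 5457. Depth limits genes near 1 CPM, where 1 library decided several calls.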

Other observations

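The lists in this section were called in both directions, as were all genes tested (14.2% higher and 12.3% lower), and several shares lie near those. Extracellular proteases, which cut matrix, were higher in 6 and lower in 7 of 22 tested. Lysosome and autophagy genes were higher in 11 and lower in 8 of 40, genes of fatty acid synthesis and oxidation in 9 and 7 of 31, and TCA cycle genes in 5 and 5 of 29. Of 47 protocadherin and FAT genes, a family of adhesion proteins with clustered copies that can share reads, 8 were higher and 2 lower. DNA methylation and Polycomb genes were higher in 7 and lower in 3 of 33, and FOXO and insulin pathway genes in 11 and 7 of 35. Single libraries left out brought counts past 1.5 times, to 7 higher for lysosome genes, 3 lower for lysosome genes, 5 higher for fatty acid genes, 4 lower for fatty acid genes, 1 higher for TCA genes, 3 higher for protocadherins, 2 higher for Polycomb genes and 4 higher for insulin pathway genes without WT replicate 2. Beyond these there were 3 lower for proteases, 3 higher for TCA genes, 1 lower for protocadherins and 3 higher for Polycomb genes without WT replicate 1 and 8 higher for TCA genes, 5 higher for protocadherins and 6 lower for Polycomb genes without IDRmut replicate 2. Next came 1 lower for protocadherins without Control replicate 2 and 1 lower for protocadherins without Control replicate 1.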
